A study of Mus musculus with 8 samples.

Results

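The collagen genes were read in whole mouse testis as every gene entry named Col, a type number, a and a chain number, with no suffix. This rule gave 44 of 54087 genes and left out Col4a3bp, whose symbol carries a suffix. They were grouped as 11 fibrillar genes (types I, II, III, V, XI, XXIV and XXVII), 8 basement membrane genes (the 6 type IV chains with Col15a1 and Col18a1) and 25 genes of other types. The libraries came from C57BL/6 males homozygous for a Dnmt3A knockout allele (Dnmt3A KO/KO, here KO) and from Dnmt3A WT/WT males (here WT), at 19 and at 25 days post partum (dpp). There were 2 libraries in each of the 4 groups, 8 in all. Dnmt3a encodes an enzyme that adds methyl groups to unmethylated DNA. The stretch deleted in the KO allele is not named in the labels, which also do not say whether the 2 libraries of a group came from separate animals, or whether animals were pooled. The p-values therefore measure the spread between these libraries, which may be technical. Whole testis holds germ cells together with Sertoli, peritubular myoid, Leydig, stromal and vascular cells.

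Collagens are secreted or membrane-bound proteins built from 3 chains wound into a triple helix. Fibrillar collagens form the tension-bearing fibrils of connective tissue, which in testis lie in the interstitium and in the capsule. Type IV collagen forms the network of basement membranes, such as the one on which Sertoli cells and spermatogonia rest, and types XV and XVIII sit at the border between basement membrane and stroma. Type VI collagen forms beaded filaments close to basement membranes. FACIT collagens, which have interrupted triple helices, bind to the surface of fibrils or lie near basement membranes. Other collagens span the cell membrane.

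Gene totals ranged from 22515812 to 50445334 counts per library, so 3 counts stood for 0.0812 to 0.126 CPM (the usual depth-scaled count, here over a library size scaled by TMM, a method that assumes most genes keep their level). Dnmt3a (chr12:3806007-3914443) had 114 and 112 CPM in KO testes at 19 dpp, against 147 and 141 CPM in WT testes. At 25 dpp it had 76.9 and 67.2 CPM in KO testes, against 48.7 and 70.0 CPM in WT testes. Dnmt3a was called at neither age (adjusted p = 0.201 and 0.204), and since the deleted part is not given these levels do not check the genotype. Markers of Sertoli, germ, Leydig and stromal cells were detected in these libraries, and no marker of these lists was at 0 in every library. Markers of epididymis summed to 20.9 CPM in KO replicate 1 at 25 dpp, led by Crisp1 at 11.3 CPM, and to at most 5.8 CPM in the other 7 libraries.

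The summed collagen level was 6654 and 6031 CPM in KO testes at 19 dpp, against 3612 and 4018 CPM in WT testes. At 25 dpp it was 1581 and 1589 CPM in KO testes, against 1866 and 2048 CPM in WT testes. On this TMM scale KO testes thus held the highest sums at 19 dpp and the lowest at 25 dpp, without overlap at either age. The order at 25 dpp depended on the scaling. TMM factors were 0.728 and 0.834 in WT there, against 1.09 and 1.07 in KO. Scaled to total counts, the median log2 fold change of the collagen genes tested was 0.17 at 25 dpp. In whole testis, fewer cells of a type and less RNA per cell cannot be told apart. Of the 44 genes, 43 had enough counts to be tested. Col10a1, a cartilage chain, was left out with 2 counts in 1 WT library at 25 dpp and 0 in the other 7 libraries, and lies opposite Nt5dc1.

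Ranked by mean level per kilobase of mRNA, Col1a2 (188 ± 25.3 CPM per kb; SD, n = 2) and Col3a1 (182 ± 18.2) led in KO testes at 19 dpp, followed by Col18a1 (108 ± 28.1) and Col1a1 (97.3 ± 10.7). The same 2 genes led in WT testes at 19 dpp, with Col1a2 at 115 ± 7.15 and Col3a1 at 111 ± 16.04 CPM per kb. Within each of these pairs the neighbours did not differ beyond their SD. In KO testes at 25 dpp Col18a1 came first (39.8 ± 1.76 CPM per kb), ahead of Col1a2 (32.6 ± 1.66) and Col4a1 (29.7 ± 0.489), while Col3a1 stood at 20.4 ± 6.37. In WT testes at 25 dpp the order was Col3a1 (42.8 ± 10.4), Col1a2 (40.4 ± 7.88) and Col16a1 (34.7 ± 1.97), whose SDs overlap. Col2a1 and Col22a1, low at 19 dpp, stood among the first 8 there, at 17.3 ± 4.65 and 16.8 ± 10.5 CPM per kb.

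**Figure D1:**
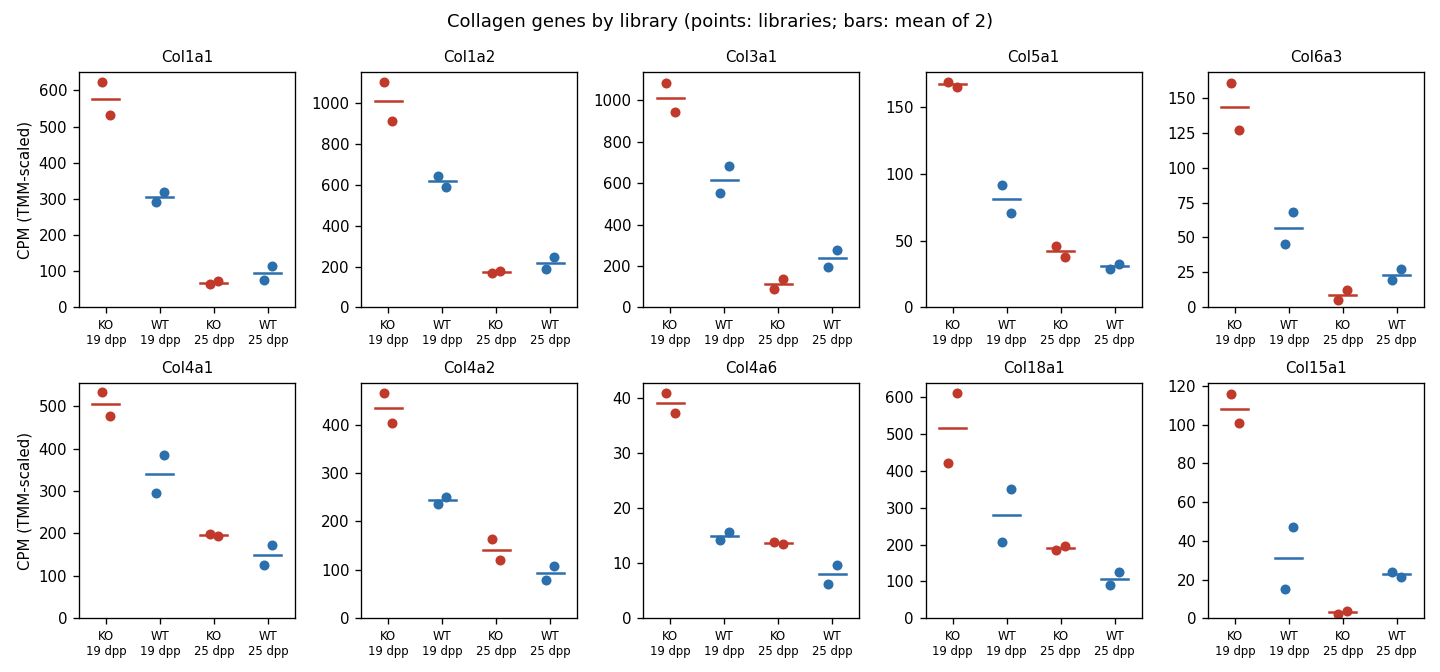
Level of 10 collagen genes in each library, in TMM-scaled CPM (vertical axis), for KO and WT at 19 and 25 dpp; points are libraries and bars the mean of 2. All 10 have their highest mean in KO at 19 dpp, and Col15a1 is at 2.43 and 3.84 CPM in KO at 25 dpp, against 23.8 and 21.5 CPM in WT.

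At 19 dpp, KO testes had more RNA of fibrillar, type IV and type VI collagen per unit of TMM-scaled library. A gene was called where the edgeR quasi-likelihood test gave a Benjamini-Hochberg adjusted p below 0.05 over 23353 genes. By this rule 12 of 43 collagen genes (27.9%) were higher in KO, where 8.80% of all genes were, and 2 (4.65%) were lower, where 13.2% of all genes were. The median log2 fold change of the 43 genes was 0.58, and that of all genes was 0. The libraries of KO and WT did not overlap in 28 genes with KO higher and 4 with KO lower, where 32.7% and 33.8% of all genes were so. Leaving out KO replicate 1 at 19 dpp ended every call in this contrast: no gene of the whole table was called by edgeR (lowest adjusted p = 0.0800), although 5256 genes and 15 collagen genes had an unadjusted p below 0.05. Without KO replicate 2, 4 collagen genes were called higher and 1 lower, and without WT replicate 2, 6 higher and 1 lower. The calls of Col1a1, Col1a2, Col4a2, Col4a5, Col5a2 and Col6a2 were also lost without WT replicate 1 (adjusted p = 0.0525 to 0.151), which left 6 of the 12 called higher, beside 2 genes not called before. Hence Col1a1, Col1a2, Col4a2, Col4a5, Col5a2 and Col6a2 each lost their call without any 1 of the 4 libraries at 19 dpp. Scaled to total counts 8 genes were called higher, and Col1a2, Col4a2, Col4a5 and Col5a2 lost their call (adjusted p = 0.0508 to 0.0696). The direction depended on the scaling: relative to 22 Sertoli markers, or to 14 stromal markers, 0 collagen genes were called higher and 7 lower, and the collagen median became -0.32 or -0.30. These 2 scalings moved the median of all genes to -0.84 and -0.89.

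The type I chains, which form the main fibril of most connective tissue, were higher in KO at 19 dpp. Col1a1 (chr11:94936224-94953042) had 622 and 532 CPM in KO testes, against 290 and 318 CPM in WT testes, a log2 fold change of 0.92 ± 0.198 (SE; adjusted p = 0.0174). Col1a2 (chr6:4504814-4541544) had 1104 and 912 CPM in KO, against 644 and 590 CPM in WT (log2 0.71 ± 0.167, adjusted p = 0.0233). Both genes were above WT in every KO library, but both lost their call without any 1 of the 4 libraries at 19 dpp. Col3a1 (chr1:45311538-45349706), which shares fibrils with type I, had 1084.5 and 941 CPM in KO, against 554 and 680 CPM in WT. Its log2 fold change was as large as that of Col1a2, at 0.71 ± 0.254, but it was not called (adjusted p = 0.0847). The 3 genes made up 42.2% and 39.6% of the summed collagen CPM in KO, against 41.2% and 39.5% in WT.

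The promoters of Col1a2 and Col3a1 are shown because both genes lead the level order in WT at both ages; the RefSeq table (GRCm38.p6) holds 38 promoters for 35 of the 44 members. Each window runs from 250 bases before to 50 bases after the RefSeq start on the plus strand, at chr6:4505368-4505667 for Col1a2 and chr1:45311288-45311587 for Col3a1. The whole Col1a2 window lies inside the gene span given above, which came from GENCODE and starts further upstream. Capitals mark CCAAT on either strand (ATTGG on the printed strand where it lies on the other) and TATAAA.
Col1a2: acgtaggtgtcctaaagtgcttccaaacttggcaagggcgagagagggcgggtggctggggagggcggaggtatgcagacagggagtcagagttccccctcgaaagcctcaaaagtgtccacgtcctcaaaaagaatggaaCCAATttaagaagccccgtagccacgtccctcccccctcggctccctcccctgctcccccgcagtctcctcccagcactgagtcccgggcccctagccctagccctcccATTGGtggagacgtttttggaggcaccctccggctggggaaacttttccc
Col3a1: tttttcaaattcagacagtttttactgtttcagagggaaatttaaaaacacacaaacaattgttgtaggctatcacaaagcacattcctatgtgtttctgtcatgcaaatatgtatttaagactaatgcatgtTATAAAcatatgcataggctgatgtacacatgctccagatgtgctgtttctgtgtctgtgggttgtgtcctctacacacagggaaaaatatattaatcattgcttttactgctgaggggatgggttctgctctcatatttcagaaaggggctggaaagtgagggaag
The Col1a2 window holds 2 CCAAT matches, 1 on each strand, and the Col3a1 window 1 TATAAA that begins 117 bases before the start. Over 32851 promoters and both strands, CCAAT was present in 37.4% (13 of the 38 collagen promoters), TATAAA in 13.6% (5 of 38), GGGCGG in 35.7% (23 of 38) and TGACGTCA in 1.79% (1 of 38). Motif matches describe letters in these windows and say nothing of binding.

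Type V chains, which nucleate fibrils and limit their width, were higher in KO at 19 dpp in all 3 genes. Col5a1 had 169 and 165 CPM in KO, against 91.2 and 70.6 CPM in WT, and was 2.06-fold higher (adjusted p = 0.00901). Col5a3 had 28.4 and 22.1 CPM in KO, against 9.48 and 10.9 CPM in WT (log2 1.31 ± 0.241, adjusted p = 0.0116), and Col5a2 was 1.69-fold higher (adjusted p = 0.0196). Col2a1, the cartilage fibril chain, went the other way: it had 1.84 and 1.79 CPM in KO, against 9.57 and 8.39 CPM in WT. Its log2 fold change was -2.30 ± 0.246 (adjusted p = 0.00714). Col11a1, Col11a2, Col24a1 and Col27a1 were not called at 19 dpp, with log2 fold changes between 0.12 and 0.25. Without KO replicate 1 the calls of Col5a1, Col5a3 and Col2a1 gave adjusted p = 0.0925, 0.117 and 0.0820, and no other single library ended them.

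All 6 type IV genes were above WT in both KO libraries at 19 dpp, where 32.7% of all genes were. Of these 6, 3 were called higher (50%), where 8.80% of all genes were. The type IV genes lie head to head in 3 pairs on opposite strands in GRCm38: Col4a1 and Col4a2 on chromosome 8, where the annotated genes overlap by 22 bases, Col4a4 and Col4a3 on chromosome 1 with 71 bases between their starts, and Col4a6 and Col4a5 on chromosome X with 1308 bases between. The Col4a2 promoter window is shown (chr8:11312555-11312854, plus strand), with the 22 shared bases in capitals. Col4a2 begins at the first capital and Col4a1 runs leftwards from the last, so most of this window lies within Col4a1. The window of Col4a1 itself (chr8:11312777-11313076, minus strand) overlaps it only in part and is not shown.
Col4a1 and Col4a2: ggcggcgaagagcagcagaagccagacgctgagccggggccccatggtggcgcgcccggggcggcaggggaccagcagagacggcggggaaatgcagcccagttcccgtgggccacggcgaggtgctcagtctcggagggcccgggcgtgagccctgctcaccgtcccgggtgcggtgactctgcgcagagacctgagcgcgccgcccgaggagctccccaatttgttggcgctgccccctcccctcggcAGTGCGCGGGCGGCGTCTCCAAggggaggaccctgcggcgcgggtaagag
The printed Col4a2 window also holds 1 CCAAT and 3 GGGCGG matches over both strands. Col4a2 had 466 and 404 CPM in KO testes at 19 dpp, against 237 and 250 CPM in WT (log2 0.84 ± 0.200, adjusted p = 0.0244). Its partner Col4a1 had 534 and 477 CPM in KO, against 295 and 385 CPM in WT, and was not called (log2 0.57 ± 0.187, adjusted p = 0.0648). Both genes of this pair were thus above WT in every library.

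On the X chromosome, Col4a6 had 41.0 and 37.4 CPM in KO at 19 dpp, against 14.3 and 15.8 CPM in WT, and was 2.61-fold higher (adjusted p = 0.00931). Its partner Col4a5 had 118 and 103 CPM in KO, against 56.1 and 74.1 CPM in WT (log2 0.77 ± 0.207, adjusted p = 0.0353). This call of Col4a5 was lost without any 1 of the 4 libraries at 19 dpp, and without either KO library at 25 dpp. Col4a4 had 481 and 411 CPM in KO, against 317 and 303 CPM in WT, and its adjusted p of 0.050003 lay just above the threshold. Col4a3, the chain that pairs with Col4a4 and Col4a5 in one of the type IV networks, had 232 and 189 CPM in KO, against 154 and 156 CPM in WT, and was not called. Within libraries, the type IV sum over the Sertoli marker sum was 0.148 and 0.143 in KO, against 0.155 and 0.192 in WT. On that scale, which needs no library scaling, KO testes at 19 dpp lay below both WT testes.

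Col15a1 (chr4:47208161-47313167) encodes the type XV chain of the basement membrane border, and it had the largest fold change of the 12 genes called higher at 19 dpp. It had 116 and 101 CPM in KO testes, against 15.3 and 46.9 CPM in WT testes, so the WT libraries differed from each other more than the KO libraries did (log2 1.80 ± 0.492, adjusted p = 0.0435). It was called under 8 of 18 alternatives and lost the call without KO replicate 1 or 2 (adjusted p = 0.205 and 0.122) and without any 1 of the 4 libraries at 25 dpp (0.0661 to 0.0871). The Leydig marker sum differed between the same 2 WT libraries, at 405 and 859 CPM, and was 1158 and 1189 CPM in KO; its part in the Col15a1 result was not tested. Col18a1, the type XVIII chain from which endostatin is cut, had 421 and 612 CPM in KO, against 206 and 352 CPM in WT, and was not called (log2 0.89 ± 0.299, adjusted p = 0.0747). Col18a1 overlaps Slc19a1 on the opposite strand, which had at most 14.97 CPM in any library.

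Among the other types, the type VI chains Col6a1 and Col6a2 were higher in KO at 19 dpp. Col6a1 had 369 and 343 CPM in KO, against 198 and 193 CPM in WT (log2 0.86 ± 0.163, adjusted p = 0.0124), and Col6a2 was 1.81-fold higher (adjusted p = 0.0142). Col6a3, the longest chain of the type VI filament, had 160 and 127 CPM in KO, against 45.3 and 68.3 CPM in WT; its log2 fold change of 1.34 ± 0.427 was not called (adjusted p = 0.0673). Col23a1, a membrane-spanning collagen, had 16.8 and 16.9 CPM in KO, against 5.59 and 5.72 CPM in WT. This was a 2.98-fold difference (adjusted p = 0.00755), with the libraries of each group close together, and it was lost without KO replicate 1 (adjusted p = 0.0851). Col20a1, a FACIT collagen, had 4.99 and 6.11 CPM in KO, against 10.4 and 15.2 CPM in WT (log2 -1.20 ± 0.280, adjusted p = 0.0226), a call lost without KO replicate 1 or 2 or WT replicate 2 (adjusted p = 0.172, 0.0756 and 0.117). The other 20 genes of this group that were tested at 19 dpp were not called.

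**Figure D2:**
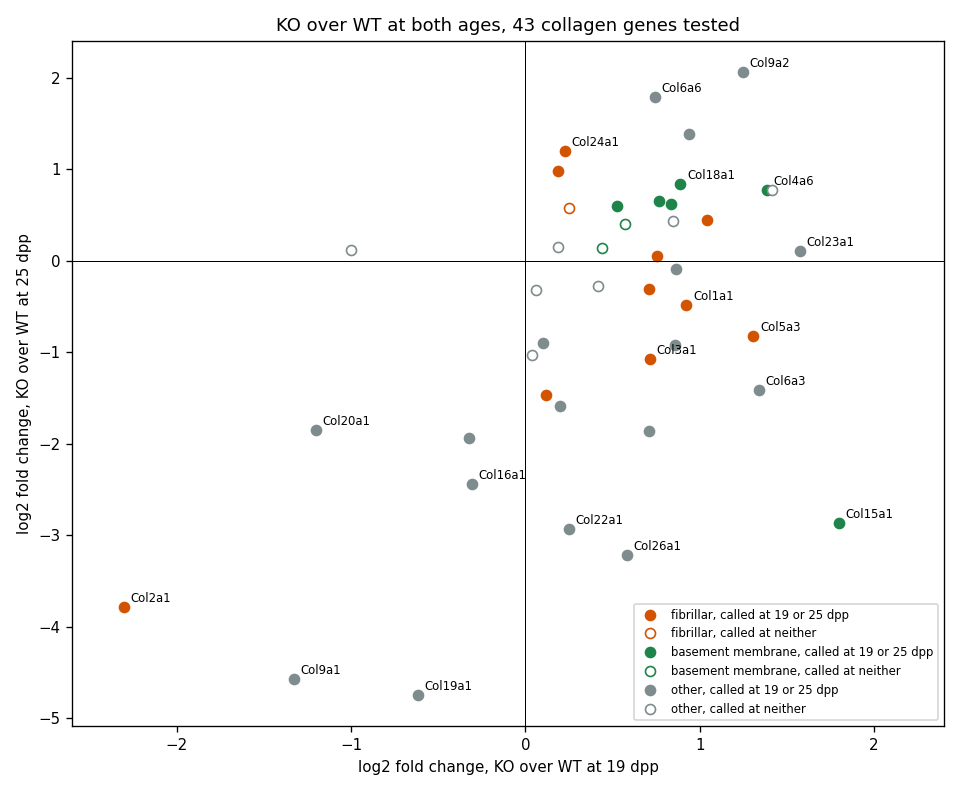
Log2 fold change of KO over WT at 19 dpp (horizontal) and at 25 dpp (vertical) for the 43 collagen genes tested, coloured by group; filled points were called at either age. Type IV genes lie above 0 on both axes, while Col15a1 lies at 1.80 and -2.86; scaled to Sertoli markers, no gene was called higher at either age.

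At 25 dpp the collagen genes split: 11 of 43 (25.6%) were called higher in KO and 17 (39.5%) lower. These shares are close to those of all genes, of which 26.1% were called higher and 37.4% lower (63.5% in either direction), and say nothing particular about collagens. The median of the 43 genes was -0.28, against -0.12 over all genes. The libraries did not overlap in 15 genes with KO higher and 21 with KO lower, where 38.5% and 46.1% of all genes were so. The genes called higher were 5 of 8 basement membrane genes, 3 of 11 fibrillar genes and 3 of 24 other genes tested. Those called lower were 1 basement membrane gene, 4 fibrillar genes and 12 of the other types. Scaled to total counts 16 genes were higher and 11 lower, scaled by DESeq2 size factors 7 and 19, and scaled to Sertoli or to stromal markers 0 were higher and 36 or 33 lower. Under total counts the calls of Col3a1, Col5a3, Col6a2, Col6a3, Col6a5 and Col12a1 as lower were lost (adjusted p = 0.0646 to 0.277). Without KO replicate 1 at 25 dpp, 1 gene was called higher (Col6a6), without KO replicate 2, 7, and without WT replicate 1, 4. Of the 17 genes called lower, 10 were called lower under every alternative in which they were tested: Col2a1, Col27a1, Col15a1, Col9a1, Col14a1, Col16a1, Col19a1, Col20a1, Col22a1 and Col25a1.

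Of the 6 type IV genes, 4 were called higher in KO at 25 dpp (66.7%) and 0 lower, where 26.1% and 37.4% of all genes were. This direction turned under 2 scalings, however. Col4a4 had 210 and 178 CPM in KO, against 113 and 142 CPM in WT (log2 0.60 ± 0.159, adjusted p = 0.0116). Col4a2 was 1.53-fold higher (adjusted p = 0.0279), Col4a5 1.58-fold (adjusted p = 0.0247) and Col4a6 1.71-fold (adjusted p = 0.0192). Col4a1 had 199 and 194 CPM in KO, against 126 and 172 CPM in WT, and was not called (log2 0.40 ± 0.187, adjusted p = 0.0948). Col4a3 overlapped between groups, with 74.9 and 84.3 CPM in KO, against 64.5 and 79.6 CPM in WT. Scaled to Sertoli markers all 6 type IV genes were called lower in KO, and scaled to stromal markers 5 were. Of 23353 genes, 16493 and 14651 were called lower under these 2 scalings. Without KO replicate 1 none of the 4 calls held (adjusted p = 0.0756 to 0.182), without KO replicate 2 those of Col4a5 and Col4a6 were lost (0.0579 and 0.0574), and without WT replicate 1 only Col4a4 was called.

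Col15a1 was lower in KO at 25 dpp, while Col18a1 was higher. Col15a1 had 2.43 and 3.84 CPM in KO testes, against 23.8 and 21.5 CPM in WT testes, and was 7.27-fold lower (log2 -2.86 ± 0.531, adjusted p = 0.00358). Col18a1 had 185 and 196 CPM in KO, against 89.1 and 124 CPM in WT (log2 0.84 ± 0.299, adjusted p = 0.0425), a call lost without KO replicate 1 or 2 or WT replicate 1 (adjusted p = 0.108, 0.135 and 0.147). The ratio of Col15a1 to Col18a1 within a library does not depend on scaling. It was 0.0132 and 0.0195 in KO at 25 dpp, against 0.268 and 0.173 in WT, with no overlap, while at 19 dpp it was 0.275 and 0.165 in KO, against 0.0742 and 0.133 in WT. Of 13 Leydig markers at 25 dpp, 6 were called lower (46.2%) and 2 higher (15.4%), where 37.4% and 26.1% of all genes were. Their sum was 378 and 427 CPM in KO, against 679 and 836 CPM in WT. Cyp11a1 stood at 0.785 and 1.07 CPM in KO, against 97.9 and 103 CPM in WT. Another of these markers, Nr5a1, went the other way, with 109 and 122 CPM in KO, against 55.8 and 75.0 CPM in WT. The part of Leydig cells in the Col15a1 result was not tested. The Col15a1 promoter is shown as the gene whose KO effect changed most between the ages (chr4:47207762-47208061, plus strand). This RefSeq window ends before the gene start given above, which came from GENCODE, so it describes the RefSeq start only. It holds none of the 4 motifs and so has no capitals.
Col15a1: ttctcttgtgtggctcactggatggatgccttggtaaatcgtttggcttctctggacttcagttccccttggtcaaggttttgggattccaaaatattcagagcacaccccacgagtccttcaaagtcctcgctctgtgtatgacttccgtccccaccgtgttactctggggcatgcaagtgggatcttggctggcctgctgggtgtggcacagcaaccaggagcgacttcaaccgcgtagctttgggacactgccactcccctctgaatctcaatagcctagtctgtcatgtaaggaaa

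**Figure D3:**
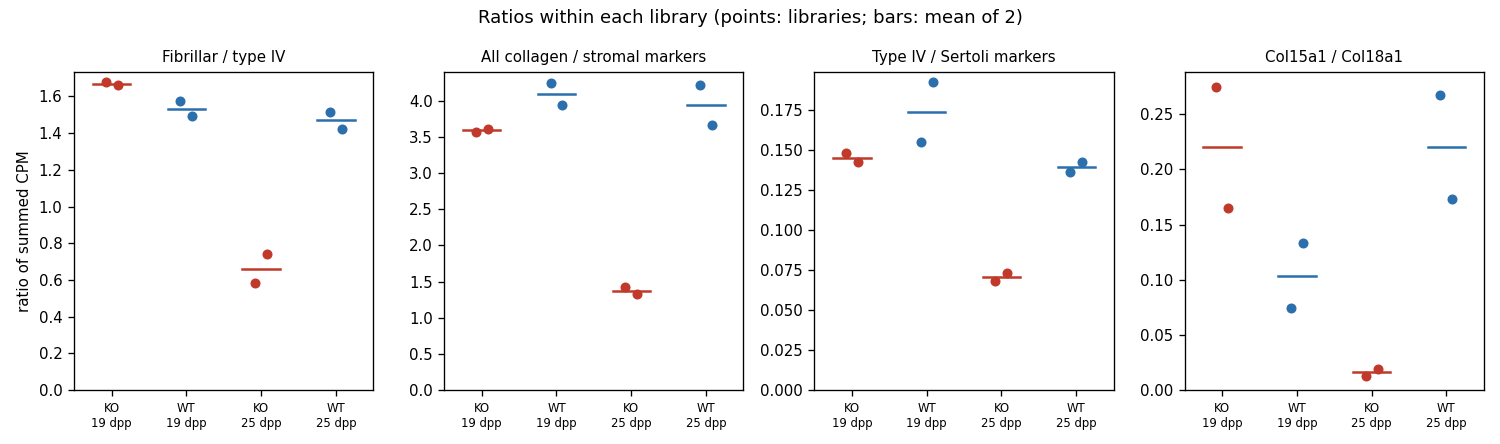
Ratios of summed CPM within each library (vertical axes, starting at 0) for KO and WT at 19 and 25 dpp; points are libraries and bars the mean of 2. KO at 25 dpp is the lowest group in all 4 panels, at 0.581 and 0.740 for fibrillar over type IV, against 1.51 and 1.42 in WT.

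Fibrillar genes at 25 dpp were divided between 3 called higher (27.3%) and 4 called lower (36.4%), close to the 26.1% and 37.4% of all genes. Col3a1 had 88.2 and 138 CPM in KO, against 197 and 279 CPM in WT (log2 -1.07 ± 0.256, adjusted p = 0.00826), and without KO replicate 1 its adjusted p was 0.0520. Col1a1 had 63.9 and 71.7 CPM in KO, against 76.1 and 114 CPM in WT, and Col1a2 had 168 and 181 CPM in KO, against 186 and 246 CPM in WT. Both type I genes lay below WT in every KO library without being called (log2 -0.49 ± 0.198 and -0.31 ± 0.166, adjusted p = 0.0608 and 0.137). Col27a1, a cartilage-type fibrillar chain, had 2.49 and 4.08 CPM in KO, against 10.9 and 7.26 CPM in WT (log2 -1.47 ± 0.333, adjusted p = 0.00612). Col5a3 was lower (log2 -0.83 ± 0.255, adjusted p = 0.0226) and Col5a1 slightly higher (log2 0.45 ± 0.170, adjusted p = 0.0489), and Col5a1 had this call under 6 of 18 alternatives. Col5a3 was lost without KO replicate 1 or WT replicate 2 (adjusted p = 0.138 and 0.0872). Col11a2 had 13.8 and 9.38 CPM in KO, against 4.91 and 6.88 CPM in WT, and was 1.97-fold higher (adjusted p = 0.0140). Col24a1 was higher (log2 1.20 ± 0.349, adjusted p = 0.0177); neither held without KO replicate 1 (adjusted p = 0.100 and 0.0747), nor Col11a2 without WT replicate 1 (0.0619) or Col24a1 without WT replicate 2 (0.0633). Within libraries, the fibrillar sum over the type IV sum was 0.581 and 0.740 in KO, against 1.51 and 1.42 in WT, while at 19 dpp it was 1.68 and 1.66 in KO, against 1.57 and 1.49 in WT.

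Type VI chains did not move together at 25 dpp. Col6a3 had 5.11 and 12.6 CPM in KO, against 19.4 and 27.4 CPM in WT (log2 -1.41 ± 0.438, adjusted p = 0.0271), and Col6a2 had 20.7 and 25.2 CPM in KO, against 37.4 and 49.5 CPM in WT (log2 -0.92 ± 0.174, adjusted p = 0.00282). Col6a1, which lies near Col6a2 on chromosome 10, overlapped between groups at 68.0 and 69.6 CPM in KO, against 61.2 and 85.6 CPM in WT. Col6a6 was 3.44-fold higher, with 9.25 and 11.4 CPM in KO, against 2.48 and 3.51 CPM in WT (adjusted p = 0.0023), and Col6a5 was lower (log2 -0.90 ± 0.334, adjusted p = 0.0444). Col6a3 was lost without WT replicate 2 or KO replicate 1 at 25 dpp (adjusted p = 0.133 and 0.0802). Col6a5 was lost without WT replicate 1 or KO replicate 2 at 25 dpp (0.232 and 0.220) and without either KO library at 19 dpp (0.0699 and 0.0693). The sum of the 6 type VI genes was 135 and 150 CPM in KO, against 166 and 204 CPM in WT.

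Of 9 FACIT genes, 7 (77.8%) were called lower in KO at 25 dpp, where 37.4% of all genes were. Only Col9a2 (11.1%) was called higher, where 26.1% of all genes were. Col16a1 (chr4:130047840-130099283) had 27.03 and 39.4 CPM in KO, against 188 and 173 CPM in WT, 5.44-fold lower (adjusted p = 0.00033). Col22a1 (chr15:71795795-72034227), known from tissue junctions such as those of muscle and tendon, had 22.1 and 16.6 CPM in KO, against 214 and 82.7 CPM in WT, 7.65-fold lower (adjusted p = 0.0017). The 2 WT libraries of Col22a1 differed from each other by more than the whole KO level. Col14a1 had 4.22 and 7.92 CPM in KO, against 24.4 and 19.5 CPM in WT (log2 -1.86 ± 0.344, adjusted p = 0.00257), and Col20a1 changed by the same amount (log2 -1.86 ± 0.281, adjusted p = 0.00117). Col9a1 had 6 and 9 counts in KO libraries, against 255 and 150 counts in WT (log2 -4.57 ± 0.754, adjusted p = 0.0016). Col19a1 had 3 and 1 counts in KO, against 86 and 38 counts in WT, so its log2 fold change of -4.75 ± 0.875 (adjusted p = 0.0025) rests on 4 KO counts. Col12a1 was lower (log2 -1.58 ± 0.535, adjusted p = 0.0338), but not without WT replicate 1 or KO replicate 2 at 25 dpp (adjusted p = 0.193 and 0.0830) or either KO library at 19 dpp (0.0612 and 0.0615).

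Col9a2 had 6.03 and 2.27 CPM in KO at 25 dpp, against 0.682 and 1.32 CPM in WT, and was 4.18-fold higher (adjusted p = 0.0222), opposite to its partner chain Col9a1; without KO replicate 1 or WT replicate 1 its adjusted p was 0.148 and 0.127. Col9a3, the other chain of type IX, was not called, and it overlaps Tcfl5 on the opposite strand, a gene with 57.5 and 77.8 CPM in KO, against 453 and 365 CPM in WT. Whether the counting used strand is not given in the sources used here, so reads of the overlap cannot be told apart. Of the membrane-spanning collagens, Col25a1 had 1.92 and 2.02 CPM in KO, against 8.07 and 7.02 CPM in WT (log2 -1.94 ± 0.291, adjusted p = 0.00113). Col13a1 had 4.57 and 4.62 CPM in KO, against 1.25 and 2.25 CPM in WT (log2 1.39 ± 0.484, adjusted p = 0.036), and lost this call without either KO library or WT replicate 1 at 25 dpp, or either KO library at 19 dpp (adjusted p = 0.0526 to 0.147). Col26a1 had 0.433 and 1.38 CPM in KO, against 9.93 and 6.61 CPM in WT (log2 -3.21 ± 0.770, adjusted p = 0.00943), and was lost without KO replicate 1 (adjusted p = 0.0572).

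With age, collagen RNA was lower at 25 than at 19 dpp in both genotypes. In WT 26 of 43 genes (60.5%) were lower at 25 dpp, where 25.4% of all genes were, and 6 were higher, where 34.9% of all genes were. In KO 27 genes (62.8%) were lower, where 8.87% of all genes were, and 1 was higher, where 10.2% of all genes were; 22 genes were lower in both genotypes. In either direction 60.3% of all genes were called in WT and 19.1% in KO. Both libraries at 25 dpp lay below both at 19 dpp for 27 genes in WT and 37 in KO, where 40.3% and 32.2% of all genes did, and above for 8 and 3, where 43.4% and 33.3% did. In WT, Col1a1 changed by a log2 of -1.68 ± 0.202, Col1a2 by -1.51 ± 0.170, Col3a1 by -1.37 ± 0.258 and Col4a1 by -1.19 ± 0.190 (adjusted p = 0.000793, 0.000631, 0.00373 and 0.00193). In KO the same genes changed by -3.09 ± 0.213, -2.53 ± 0.176, -3.16 ± 0.275 and -1.36 ± 0.190 (adjusted p = 0.00236, 0.00236, 0.00432 and 0.00784). The largest change in KO was that of Col15a1, at -5.12 ± 0.579 (adjusted p = 0.00754), followed by Col6a3 at -4.03 ± 0.478 (adjusted p = 0.00764). Without KO replicate 1 at 19 dpp 6 genes were called lower with age in KO, and Col15a1, Col6a3, Col3a1, Col4a1, Col4a2, Col16a1 and Col26a1 were among those that lost the call (adjusted p = 0.0580 to 0.158 for these 7). Without KO replicate 2 at 25 dpp 15 were called lower. Scaled to Sertoli markers, 6 genes were lower and 9 higher with age in WT, and 20 lower and 1 higher in KO.

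The KO effect itself differed between the ages for 16 of 43 collagen genes (37.2%), all with a lower value at 25 dpp, where 11.4% of all genes were lower and 7.68% higher. They were Col1a1, Col1a2, Col3a1, Col5a3, Col27a1, Col2a1, Col15a1, Col6a1, Col6a2, Col6a3, Col14a1, Col16a1, Col22a1, Col23a1, Col25a1 and Col26a1. The difference was -4.66 ± 0.724 on the log2 scale for Col15a1, -1.78 ± 0.245 for Col6a2, -2.13 ± 0.351 for Col5a3 and -1.41 ± 0.280 for Col1a1 (adjusted p = 0.0107, 0.00654, 0.00969 and 0.0161). None of the 6 type IV genes was among them: their differences lay between -0.61 (Col4a6) and 0.08 (Col4a4), with SEs of 0.221 to 0.323. Col6a2 and Col16a1 were called in this contrast under each of the 17 alternatives in which it was fitted; it could not be fitted with only the libraries of 1 pair of groups. Without KO replicate 1 at 19 dpp 3 of the 43 genes were called, without KO replicate 2 at 19 dpp 6, without KO replicate 1 or 2 at 25 dpp 6 or 7, and without WT replicate 1 at 19 dpp 8. Scaled to Sertoli or stromal markers 16 or 15 genes were lower and 0 higher in this contrast, and scaled to total counts 9 were lower and 4 higher.

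In WT testes 6 collagen genes were higher at 25 than at 19 dpp: Col2a1, Col9a1, Col16a1, Col19a1, Col20a1 and Col22a1. This contrast shares its 2 WT libraries at 25 dpp with that of KO over WT at 25 dpp, so the 2 contrasts are not independent. Col2a1 (chr15:97975602-98004695) had 105 and 71.4 CPM in WT at 25 dpp, against 9.57 and 8.39 CPM in WT at 19 dpp (log2 3.29 ± 0.239, adjusted p = 0.000413). In KO it had 7.01 and 5.72 CPM at 25 dpp, against 1.84 and 1.79 CPM at 19 dpp, so it was also higher with age there (log2 1.81 ± 0.245, adjusted p = 0.00764), though not without KO replicate 1 at 19 dpp (adjusted p = 0.0799). KO over WT at 25 dpp, Col2a1 was 13.8-fold lower (log2 -3.79 ± 0.245, adjusted p = 0.000308), and the KO level at 25 dpp was close to, and below, the WT level at 19 dpp. Col16a1 was higher with age in WT (log2 1.19 ± 0.225, adjusted p = 0.0035) and lower with age in KO (log2 -0.94 ± 0.226, adjusted p = 0.0278), a call in KO that was lost without any 1 of the 4 KO libraries (adjusted p = 0.0577 to 0.158). Col22a1 had a log2 change of 3.08 ± 0.454 with age in WT, Col9a1 of 2.77 ± 0.659 and Col19a1 of 3.65 ± 0.781 (adjusted p = 0.00202, 0.00857 and 0.00563). Col20a1 changed by 1.14 ± 0.275 (adjusted p = 0.00889), a call lost without WT replicate 1 of 19 or of 25 dpp (adjusted p = 0.0554 and 0.0562).

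Germ cell markers are given beside these 6 genes. The sum of 12 spermatocyte markers was 2170 and 3173 CPM in KO at 25 dpp, against 9901 and 8368 CPM in WT. At 19 dpp it was 348 and 634 CPM in KO, against 2163 and 3415 CPM in WT. The sum of 12 spermatid markers was 34.9 and 62.5 CPM in KO at 25 dpp, against 4436 and 1259 CPM in WT. Of the 12 spermatocyte markers 12 were called lower in KO at 19 dpp (100%) and 8 at 25 dpp (66.7%), and of the 12 spermatid markers 2 (16.7%) and 12 (100%). Of all genes, 13.2% were called lower at 19 dpp and 37.4% at 25 dpp. From 19 to 25 dpp in KO, 12 of 12 spermatocyte markers were called higher, where 10.2% of all genes were. For spermatid markers it was 1 of 12 (8.33%), close to that share. Over the same step in KO Col2a1 was called higher and Col16a1 lower, and Col9a1, Col19a1, Col20a1 and Col22a1 were not called (log2 -0.47, -0.48, 0.49 and -0.11). Col9a1 and Col19a1 had at most 15 counts in any KO library. At 25 dpp all 6 genes were higher in WT replicate 1 than in WT replicate 2, as were both the spermatocyte and the spermatid sum. This compares 1 pair of libraries, and the share of all genes in this order was not computed. The part of germ cells in the levels of these genes was not tested. The Col16a1 promoter, the most abundant of the 6 genes in WT at 25 dpp, is shown with its CCAAT in capitals (chr4:130047590-130047889, plus strand); it also holds 2 GGGCGG matches.
Col16a1: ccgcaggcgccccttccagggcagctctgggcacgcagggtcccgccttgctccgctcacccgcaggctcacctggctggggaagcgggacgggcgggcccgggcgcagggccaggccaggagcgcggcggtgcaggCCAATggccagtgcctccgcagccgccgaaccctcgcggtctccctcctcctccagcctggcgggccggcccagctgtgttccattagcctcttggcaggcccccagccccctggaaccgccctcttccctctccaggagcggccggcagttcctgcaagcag

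**Figure D4:**
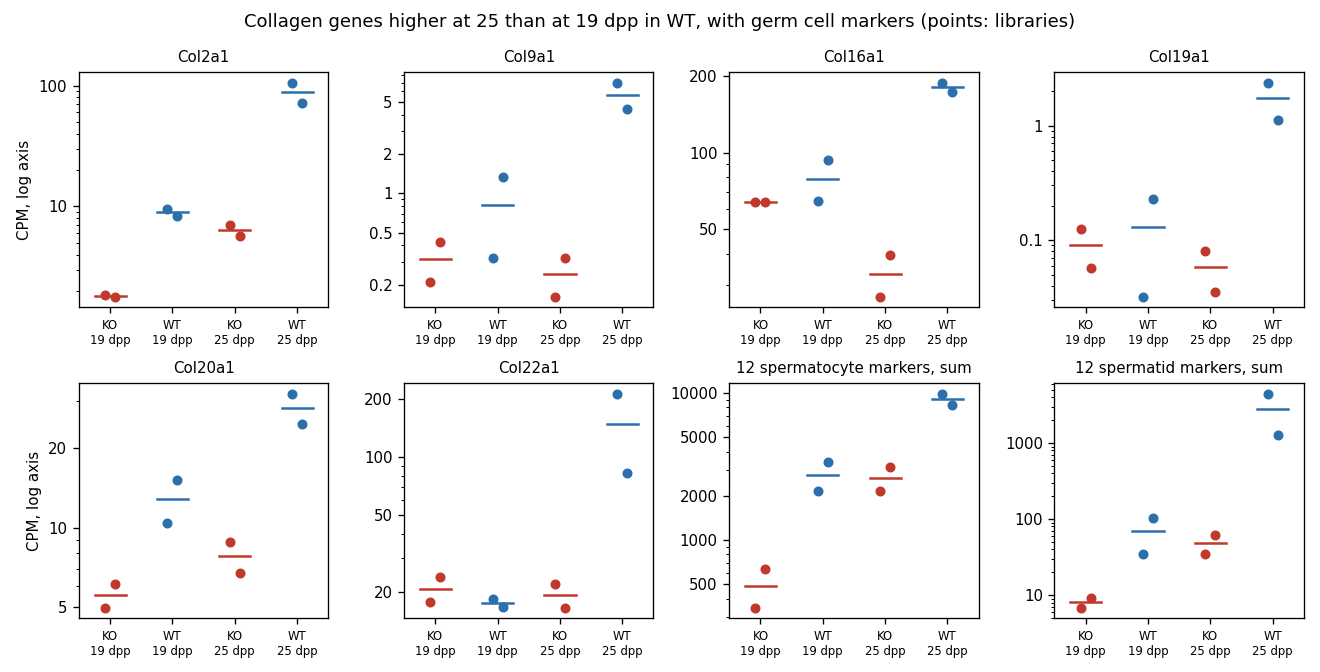
Level of the 6 collagen genes higher with age in WT, and sums of 12 spermatocyte and 12 spermatid markers, in CPM on log axes; points are libraries and bars the mean of 2. In each panel the 2 WT libraries at 25 dpp lie above all other libraries, as for Col2a1 at 105 and 71.4 CPM.

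Somatic markers stood beside the other collagens as follows. The 22 Sertoli markers summed to 12643 and 11380 CPM in KO at 19 dpp, against 6915 and 6154 CPM in WT. At 25 dpp they summed to 10523 and 8717 CPM in KO, against 3045 and 3860 CPM in WT. The 14 stromal markers, none of them a collagen, summed to 1864 and 1672 CPM in KO at 19 dpp, against 851 and 1018 CPM in WT. At 25 dpp they summed to 1109 and 1196 CPM in KO, against 442 and 559 CPM in WT. The collagen sum over the stromal sum was 3.57 and 3.61 in KO at 19 dpp, against 4.25 and 3.95 in WT. At 25 dpp it was 1.43 and 1.33 in KO, against 4.22 and 3.67 in WT. At 25 dpp both KO values thus lay far below both WT values. Peritubular myoid markers summed to 659 and 774 CPM in KO at 25 dpp, against 618 and 648 CPM in WT. Of the Sertoli markers 15 were called higher at 19 dpp (68.2%) and 20 at 25 dpp (90.9%), with 0 lower. Of the stromal markers 6 were higher at 19 dpp (42.9%) and 0 lower, and 7 were higher (50%) and 2 lower (14.3%) at 25 dpp. Of all genes, 8.80% were higher and 13.2% lower at 19 dpp, and 26.1% higher and 37.4% lower at 25 dpp. The part of these cell types in the collagen levels was not tested.

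Genes that build, cut and bind collagen were read beside the chains, in lists of known roles. Of 19 genes of chain modification and folding, 8 were higher (42.1%) and 1 lower (5.26%) in KO at 19 dpp, and 10 higher (52.6%) and 2 lower (10.5%) at 25 dpp. Of all genes, 8.80% were higher and 13.2% lower at 19 dpp, and 26.1% higher and 37.4% lower at 25 dpp. Fkbp10, a folding enzyme of the endoplasmic reticulum, had 117 and 109 CPM in KO at 19 dpp, against 53.3 and 44.3 CPM in WT (log2 1.21 ± 0.15, adjusted p = 0.00714), and Colgalt1, which adds galactose to collagen, had 325 and 243 CPM in KO at 25 dpp, against 92.2 and 123 CPM in WT. Of 13 genes of propeptide processing and crosslinking, 6 were higher (46.2%) and 0 lower at 19 dpp, where 8.80% and 13.2% of all genes were. At 25 dpp 3 were higher (23.1%) and 4 lower (30.8%), close to the 26.1% and 37.4% of all genes. Bmp1, the protease that removes the C-terminal propeptide of fibrillar collagens, had 95.7 and 89.0 CPM in KO at 19 dpp, against 43.3 and 33.8 CPM in WT (log2 1.26 ± 0.23, adjusted p = 0.0110), a call lost without KO replicate 1 or 2 or WT replicate 2 at 19 dpp (adjusted p = 0.102, 0.0531 and 0.0574). At 25 dpp its enhancer Pcolce had 19.3 and 18.4 CPM in KO, against 63.7 and 59.0 CPM in WT (log2 -1.70 ± 0.19, adjusted p = 0.000445). The crosslinking enzyme Loxl1 had 7.36 and 7.81 CPM in KO, against 26.4 and 23.7 CPM in WT (log2 -1.72 ± 0.17, adjusted p = 0.000351). Adamts14, which trims the N-terminal propeptide, was higher at 25 dpp, with 13.6 and 11.04 CPM in KO, against 3.66 and 4.80 CPM in WT. Pcolce overlaps Fbxo24 on the same strand, so its reads may be shared. Fkbp10 overlaps Nt5c3b and Colgalt1 overlaps Unc13a on the opposite strand, and the strand setting of the counting is not given.

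Of 21 other basement membrane proteins, 13 were higher (61.9%) and 0 lower in KO at 19 dpp, where 8.80% and 13.2% of all genes were. At 25 dpp 15 were higher (71.4%) and 2 lower (9.52%), where 26.1% and 37.4% of all genes were. Sparc, a collagen-binding glycoprotein, had 2847 and 2469 CPM in KO at 19 dpp, against 1337 and 1432 CPM in WT, and the laminin chain Lama2 had 442 and 362 CPM in KO, against 196 and 203 CPM in WT (log2 1.01 ± 0.18, adjusted p = 0.0102). The laminin chain Lamb3 went the other way at 25 dpp, with 0.35 and 0.21 CPM in KO, against 8.02 and 4.48 CPM in WT (log2 -4.43 ± 0.48, adjusted p = 0.000416). Lamb3 overlaps Hsd11b1 and G0s2 on the opposite strand, and the strand setting of the counting is not given. Of 9 receptors tested, 3 were higher (33.3%) and 0 lower at 19 dpp, and 2 higher and 2 lower (22.2% each) at 25 dpp. Among them Ddr1, a receptor kinase that binds collagen, had 208 and 205 CPM in KO at 25 dpp, against 49.6 and 62.9 CPM in WT (log2 1.87 ± 0.17, adjusted p = 0.000317). The integrin chain Itga2 had 0.43 and 0.21 CPM in KO, against 5.13 and 3.60 CPM in WT (log2 -3.71 ± 0.44, adjusted p = 0.00053). Of 12 breakdown genes tested, 5 were higher (41.7%) and 0 lower at each age, among them the protease Mmp2 at 19 dpp (log2 1.16 ± 0.22, adjusted p = 0.0127), whose call was lost without KO replicate 1 or 2 or WT replicate 2 (adjusted p = 0.118, 0.0512 and 0.0707).

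Of 13 fibril-associated proteoglycans and glycoproteins tested, 4 were higher (30.8%) and 1 lower (7.69%) in KO at 19 dpp, where 8.80% and 13.2% of all genes were. At 25 dpp 5 were higher (38.5%) and 2 lower (15.4%), where 26.1% and 37.4% of all genes were. Comp, a glycoprotein of cartilage and tendon that binds fibrils, had 2.76 and 4.30 CPM in KO at 25 dpp, against 260 and 171 CPM in WT (log2 -5.94 ± 0.75, adjusted p = 0.000912). Decorin (Dcn), a proteoglycan that is also among the stromal markers, had 306 and 317 CPM in KO at 25 dpp, against 78.5 and 115 CPM in WT (log2 1.69 ± 0.21, adjusted p = 0.000591), and Prelp was higher as well (log2 1.98 ± 0.23, adjusted p = 0.000517). Dpt, which binds decorin, had 18.4 and 16.2 CPM in KO at 19 dpp, against 4.24 and 6.73 CPM in WT (log2 1.65 ± 0.34, adjusted p = 0.0146), and was not called without KO replicate 1 or 2 or WT replicate 1 (adjusted p = 0.118, 0.0617 and 0.0513). Scaled to Sertoli markers, no gene of the 6 lists was called higher at 19 dpp and 1, of the basement membrane list, at 25 dpp; Comp, Lamb3, Itga2, Loxl1 and Pcolce were called lower at 25 dpp under every alternative in which they were tested.

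**Figure D5:**
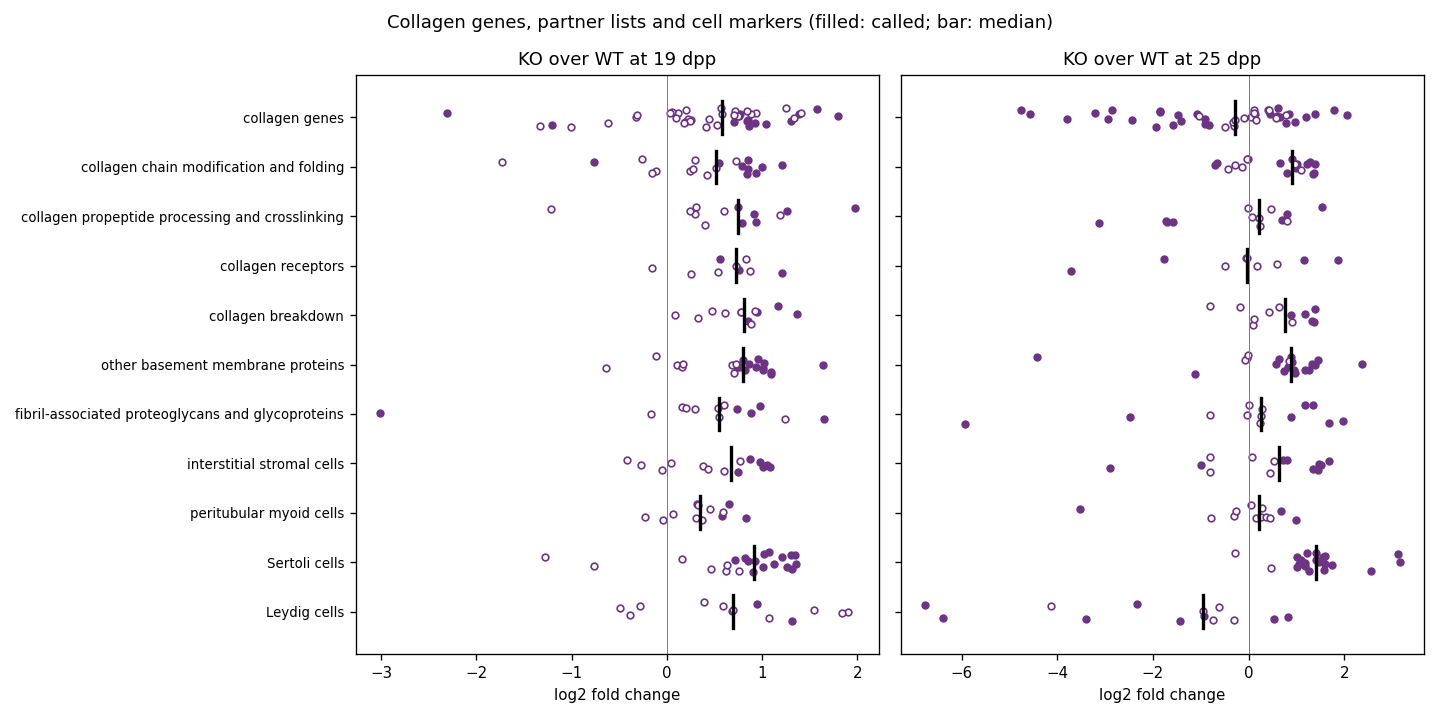
Log2 fold change of KO over WT for the collagen genes, 6 lists of partner genes and 4 marker lists at 19 dpp (left) and 25 dpp (right); each point is a gene, filled where called, and bars mark list medians. The collagen median is 0.58 at 19 dpp and -0.28 at 25 dpp, and scaled to Sertoli markers it is -0.32 and -1.74.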

How the data were processed

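Poly(A) RNA of whole testis was sequenced from 8 libraries with a stranded mRNA kit, per the labels' protocols. The authors deposited whole-number read counts per gene and per repeat family; STAR 2.7.0a, featureCounts 1.5.1 and build mm10 are named in the submitters' processing notes. The annotation, the strand setting and the handling of reads with several positions are not given in the sources used here. The 1205 repeat families, 4.10% to 5.68% of the counts, were left out of library sizes and tests. Gene positions and lengths came from GENCODE M21 (GRCm38, the same build as mm10), and CPM per kb used the longest principal coding transcript.

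Counts of all 4 groups were fitted together with edgeR 4.0.16 (TMM scaling, filterByExpr, robust quasi-likelihood test, 1 mean per group, 4 residual degrees of freedom) in R 4.3.3, and p-values of each of 5 contrasts were adjusted over the 23353 genes tested (Benjamini-Hochberg, threshold 0.05). The procedure was also run on simulated counts in which a small set of genes was changed in 1 group, equally up and down. That run does not check the scaling where many genes differ, as they do here. A standard error is the size of the log2 fold change divided by the square root of F. No 2 libraries held identical counts. All collagen genes could be named; of each list of partner genes, the 3 with the smallest p and the 2 with the highest level per age could be named. The collagen genes, lists and tests were chosen with earlier results of these data known. Alternatives were other scalings (DESeq2 1.42.0 size factors, total gene counts, 22 Sertoli markers, 14 stromal markers), dropping the filter or asking for 5 CPM in 2 libraries, DESeq2's Wald test, limma 3.58.1 with voom, only the libraries compared, the replicate number as a block, and each library left out. The limit of 3 counts covers counting error only.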

Additional observations from a re-analysis of the deposited data

Results flagged for a closer look

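For 16 collagen genes the KO effect at 25 dpp differed from that at 19 dpp by a test of the difference itself (edgeR, adjusted over 23353 genes), and all 16 differences were below 0. On the log2 scale, those of the fibrillar genes were -1.41 for Col1a1 (adjusted p = 0.0161), -1.02 for Col1a2 (0.0256), -1.79 for Col3a1 (0.0185), -2.13 for Col5a3 (0.00969), -1.49 for Col2a1 (0.0227) and -1.58 for Col27a1 (0.0493). Type VI chains differed by -0.96 for Col6a1 (0.0287), -1.78 for Col6a2 (0.00654) and -2.75 for Col6a3 (0.0272). Col15a1, of the basement membrane border, differed by -4.66 (0.0107). The FACIT genes differed by -2.57 for Col14a1 (0.0133), -2.14 for Col16a1 (0.00781) and -3.18 for Col22a1 (0.0182). The membrane-spanning genes differed by -1.47 for Col23a1 (0.0182) and -1.61 for Col25a1 (0.0313), and Col26a1 differed by -3.79 (0.0443). At 25 dpp Col1a1, Col1a2, Col6a1 and Col23a1 were not called between KO and WT, and the others were called lower in KO; Col2a1 was lower at 19 dpp as well.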

How the results depend on the processing

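Results were recomputed under 18 alternatives, and the difference between the ages under 17, since it could not be fitted with only the libraries compared. The number of collagen genes called higher in KO at 19 dpp was 0 scaled to Sertoli markers, 0 scaled to stromal markers, 8 scaled to total counts and 20 with DESeq2's Wald test, and the number called lower was 7 under each of the marker scalings. At 25 dpp 7 were higher with DESeq2 size factors and 0 under each marker scaling, and 11 were lower scaled to total counts, 36 to Sertoli and 33 to stromal markers. With age in WT 6 (Sertoli) and 9 (stromal) were lower; in KO 3 were higher scaled to stromal markers and 2 without a filter, with the Wald test or with only the libraries compared. The median log2 fold change became -0.32 (Sertoli) and -0.30 (stromal) at 19 dpp, and 0.17 (total counts), -1.74 (Sertoli), -1.47 (stromal) and -0.0365 (at least 5 CPM) at 25 dpp. Without 1 library each, the counts ranged from 0 to 16 higher and 0 to 2 lower at 19 dpp, 1 to 11 higher and 13 to 17 lower at 25 dpp, 5 to 6 higher and 21 to 26 lower with age in WT, 0 to 1 higher and 6 to 28 lower with age in KO, and 3 to 14 for the difference; the medians ranged from 0.49 to 0.64 and from -0.31 to -0.0047. Fold changes of single genes turned at 19 dpp scaled to Sertoli markers for Col1a2 (-0.17), Col3a1 (-0.18), Col5a2 (-0.13), Col4a1 (-0.32), Col4a2 (-0.049), Col4a4 (-0.36), Col4a5 (-0.13), Col6a1 (-0.017) and Col6a2 (-0.028), and scaled to stromal markers for Col1a1 (-0.0035), Col1a2 (-0.23), Col3a1 (-0.21), Col5a2 (-0.17), Col4a1 (-0.34), Col4a2 (-0.091), Col4a4 (-0.41), Col4a5 (-0.15), Col6a1 (-0.068) and Col6a2 (-0.069). At 25 dpp they turned with Sertoli markers for Col5a1 (-1.04), Col5a2 (-1.41), Col11a2 (-0.51), Col24a1 (-0.30), Col4a1 (-1.06), Col4a2 (-0.86), Col4a3 (-1.32), Col4a4 (-0.88), Col4a5 (-0.81), Col4a6 (-0.68), Col18a1 (-0.62) and Col13a1 (-0.051). With stromal markers they turned for Col5a1 (-0.76), Col5a2 (-1.14), Col11a2 (-0.21), Col24a1 (-0.028), Col4a1 (-0.79), Col4a2 (-0.57), Col4a3 (-1.06), Col4a4 (-0.60), Col4a5 (-0.53), Col4a6 (-0.41) and Col18a1 (-0.36). They also turned for Col1a2 (0.14) and Col6a1 (0.36) with total counts, Col5a2 with DESeq2 size factors (-0.046), the Wald test (-0.045) and without 1 WT library at 25 dpp (-0.053 to 0.28), and Col6a1 with only the libraries compared (0.030) and without 1 WT library at 25 dpp (-0.24 to 0.19). The cause was not tested. Libraries with the same replicate number deviated together with correlations of -0.108 to 0.471, the highest between WT at 19 dpp and KO at 25 dpp. With 2 libraries per group this cannot show whether the numbers pair the libraries. With the replicate block 16 genes were higher and 2 lower at 19 dpp, and 11 and 16 at 25 dpp. With age, 6 were higher and 25 lower in WT, and 1 and 27 in KO. In that fit 15 differed between ages. Col9a1 and Col19a1 were not tested under the filter at 5 CPM.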
